A study of Mus musculus with 2 samples.

Results

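Mir149, Mir342, Mir151, Mir744, Mir652 and Mir490 are 6 miRNA genes that lie in introns of the protein-coding genes Gpc1, Evl, Ptk2, Map2k4, Tmem164 and Chrm2, in that order. They were taken by symbol from the 1973 miRNA genes counted. The set was chosen by host intron and with the own-strand levels in reads per 1000000 gene reads in view, so these levels are given as a description with no test. All 6 passed the detection minimum of 10 reads in each library, as did 371 miRNA genes in all. The tissue was neural tube, the embryonic precursor of brain and spinal cord, dissected from healthy B6NCrl mouse embryos aged 12.5 days. It was profiled by microRNA sequencing, with library inserts in a size range below 30. The single group had no treatment or mutation in its labels and held 2 biological replicates, each a pool of male and female embryos, of 120 embryos for replicate 1 and 88 for replicate 2. With 1 tissue and 1 stage, conditions could not be compared.

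An intronic miRNA is copied as part of the precursor transcript of its host. The enzyme Drosha cuts a hairpin out of the intron, Dicer trims it to a short duplex, and an Argonaute protein keeps one arm, whose seed pairs with target mRNAs. A hairpin on the strand of its host can be made whenever the host is transcribed, although some intronic hairpins also have promoters of their own. The hosts here act mostly at the cell surface and in signal relay. Gpc1 encodes glypican-1, a heparan sulfate proteoglycan that binds growth factors. Evl encodes an Ena/VASP protein that promotes growth of actin filaments. Ptk2 encodes focal adhesion kinase, which signals from integrins. Map2k4 encodes a kinase upstream of JNK and p38, and Chrm2 the muscarinic acetylcholine receptor M2. Tmem164 encodes a membrane protein and is by its name neither a signalling nor an adhesion gene, so the description of the hosts fits it least.

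The mature sequences show which arms the counts combine and how little the genes share. RefSeq (GRCm38.p6, the mm10 assembly) held 5 of the 6 genes, and Mir151 was not among them. Both arms of each hairpin are given from 5′ to 3′ with the seed, bases 2 to 8, in capitals.

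mmu-miR-149-5p: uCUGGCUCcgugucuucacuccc
mmu-miR-149-3p: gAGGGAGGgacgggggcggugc
mmu-miR-652-5p: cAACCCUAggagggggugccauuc
mmu-miR-652-3p: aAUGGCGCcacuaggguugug
mmu-miR-744-5p: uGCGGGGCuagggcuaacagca
mmu-miR-744-3p: cUGUUGCCacuaaccucaaccu
mmu-miR-342-5p: aGGGGUGCuaucugugauugag
mmu-miR-342-3p: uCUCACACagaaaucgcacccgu
mmu-miR-490-5p: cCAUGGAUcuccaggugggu
mmu-miR-490-3p: cAACCUGGaggacuccaugcug

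The 10 arms carried 10 different seeds. Of these, 9 occurred in no other gene among the 1738 mature sequences of the RefSeq table. The seed of miR-149-3p, AGGGAGG, was shared with 4 other genes (Mir1943, Mir7016, Gm27740 and Gm27775), none of them detected. miR-149-3p was also the richest of the 10 arms in G and C, at 81.8%, against a median of 52.2% over all mature sequences, and G alone made up 68.2% of its bases. No member hairpin of the 5 shared 20 bases with another hairpin in the table, while 66 of the 320 detected genes found there did (20.6%). Multimapping reads were counted apart from the genes, so a shared hairpin would lower a gene's count.

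The hairpins of the highest and the lowest of the 6 genes are shown because, among the 5 with a sequence, they also differ most in G and C content. The mature arms are in capitals.

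Mir149 hairpin: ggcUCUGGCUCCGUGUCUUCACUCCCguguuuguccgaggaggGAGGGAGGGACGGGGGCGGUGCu
Mir490 hairpin: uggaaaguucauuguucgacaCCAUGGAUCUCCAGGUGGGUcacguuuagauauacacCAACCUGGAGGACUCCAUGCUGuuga

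The Mir149 hairpin, at chr1:92850378-92850443 on the plus strand, held 68.2% G and C, and 13 of the 320 detected hairpins held more. The Mir490 hairpin, at chr6:36421742-36421825 on the plus strand, held 47.6%, against a median of 50.5% over detected hairpins. Folding energies computed with RNAfold were -36.7 kcal/mol for Mir149 and -32.3 kcal/mol for Mir490. Per base this was -0.556 and -0.385 kcal/mol, with a median of -0.437 over the detected hairpins. By this measure 30 detected hairpins were more stable than that of Mir149 and 252 more stable than that of Mir490. The other three lay between them, at -0.500 for Mir652, -0.473 for Mir342 and -0.448 kcal/mol per base for Mir744. The energies are predictions from sequence and say nothing of how well each hairpin is cut or read.

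Each of the 6 hairpins lay on the strand of its host, and no other counted miRNA gene lay in any of these hosts. Coordinates are from GENCODE M21 on mm10, and intron numbers follow the coding transcript with the most exons. Mir149 lay in intron 1 of Gpc1, a gene of 29.1 kb with 9 exons, 18.3 kb after exon 1 and 2.90 kb before the next exon. Mir652 (chrX:142739000-142739097, plus strand) lay in intron 2 of Tmem164, 56.0 kb after the upstream exon and 12.9 kb before the next. Mir744 (chr11:65734733-65734832, minus strand) lay in intron 3 of Map2k4, 359 nt after the upstream exon, the shortest such distance of the 6 genes. Mir342 (chr12:108658620-108658718, plus strand) lay in intron 4 of Evl, 5.52 kb after the upstream exon.

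Mir151 (chr15:73254815-73254882, minus strand) lay in intron 23 of Ptk2, whose coding transcript has 34 exons, 2.15 kb after the upstream exon. An antisense transcript, 1700085D07Rik, spans the same place on the plus strand. Mir490 lay in intron 2 of Chrm2, 33.0 kb after the upstream exon and 101 kb before the last one. That intron spanned 134 kb, the longest of the 6, and the other five spanned from 14.6 kb in Ptk2 to 69.1 kb in Tmem164. Host transcripts were not measured by these libraries.

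**Figure D1:**
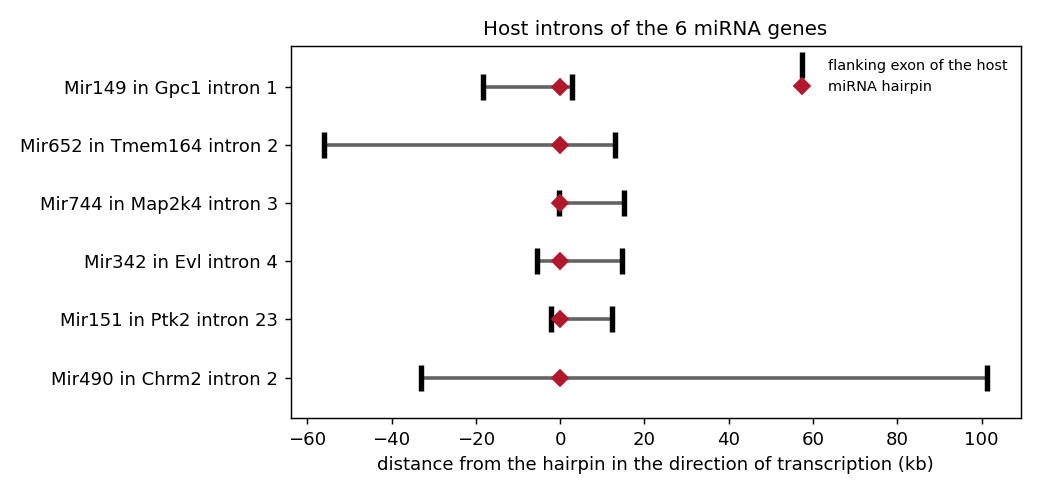
The host intron around each of the 6 hairpins, drawn to scale in kb in the direction of transcription, with the hairpin at 0 and the flanking exons as black bars. The Map2k4 hairpin sits 359 nt from its upstream exon, and the Chrm2 intron of 134 kb is the longest.

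The libraries held 4802411 own-strand reads on miRNA genes in replicate 1 and 4422853 in replicate 2. A count of 0 therefore allows up to 0.625 CPM in replicate 1 and 0.678 CPM in replicate 2 (3 counts). Multimapping reads were 27.0% and 28.6% of all reads. The labelled tissue was checked against 10 neural miRNA genes, of which 9 were counted, 7 detected and none at 0 in both libraries. Their summed level was 9825 CPM in replicate 1 and 8148 CPM in replicate 2, led by Mir219a-2. The Mir9 and Mir124a genes among them are near-identical copies, whose multimapping reads are in no gene's count.

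The 6 genes together held 3.14% of gene reads in replicate 1 (95% exact binomial interval 3.13 to 3.16) and 2.74% in replicate 2 (2.72 to 2.75), or 2.94% ± 0.288 (SD, n = 2). Intervals and floors come from the counts of 1 library at a time and cover counting error only. Reads copied by PCR were not marked with molecular identifiers, so the intervals may be too narrow even for that. Almost all of this share came from 5 genes at similar levels, with Mir490 far below them. Levels are in reads per 1000000 own-strand gene reads (CPM), in which each read counts for a whole mature strand.

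Mir149 had 35223 reads in replicate 1 and 29885 in replicate 2. This is 7334 and 6757 CPM, with a mean of 7046 ± 408 CPM (SD, n = 2), the highest of the 6. The counting intervals were 7258 to 7411 CPM in replicate 1 and 6681 to 6834 CPM in replicate 2, so the libraries differed by more than counting error. Its host, Gpc1, is known for expression in the developing nervous system, but host transcripts were not measured here.

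Mir652, the gene of the Tmem164 intron, had 31750 and 24843 reads in replicates 1 and 2, or 6611 and 5617 CPM, with a mean of 6114 ± 703 CPM. Mir744, from the intron of the kinase gene Map2k4, had 30633 and 22778 reads, or 6379 and 5150 CPM, with a mean of 5764 ± 869 CPM. Both were higher in replicate 1, and the ranges of these genes over the libraries overlap.

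Mir342, in the actin regulator gene Evl, is known from leukocytes as well as from brain. It had 29231 reads in replicate 1 and 22348 in replicate 2, or 6087 and 5053 CPM, with a mean of 5570 ± 731 CPM. Mir151, in the focal adhesion kinase gene, had 24099 and 21162 reads, or 5018 and 4785 CPM, with a mean of 4901 ± 165 CPM. Its spread between libraries was the smallest of the 6, with a coefficient of variation (CV) of 3.37%.

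Mir490, in the muscarinic receptor gene, had 92 reads in replicate 1 and 41 in replicate 2. This is 19.2 CPM (15.4 to 23.5) and 9.27 CPM (6.65 to 12.6), with a mean of 14.2 ± 6.99 CPM. The counting intervals do not overlap, and both libraries lie far above the limit that a count of 0 allows. For none of the 6 genes was a read counted on the opposite strand in either library. These counts cover only the miRNA gene, in libraries of short inserts, so the antisense transcript at Mir151 was not measured.

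**Figure D2:**
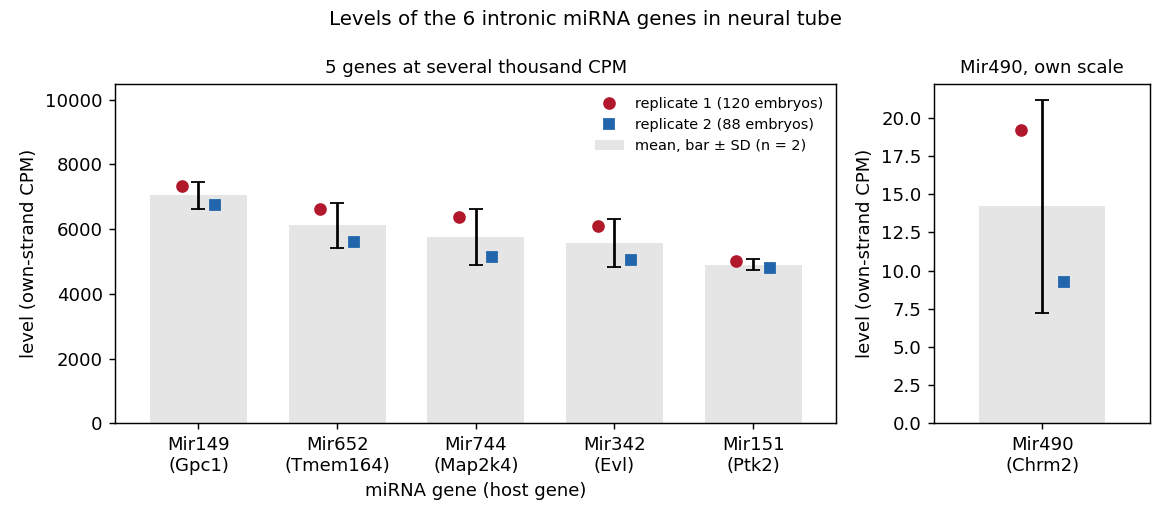
Level in own-strand CPM of each gene in replicate 1 (red circles) and replicate 2 (blue squares), with the mean as a bar and its SD (n = 2). Mir490 has a scale of its own, since its mean of 14.2 CPM would not be visible beside levels of 4901 to 7046 CPM, and in every gene replicate 1 lies above replicate 2.

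The order of the levels was the same in both libraries, namely Mir149, Mir652, Mir744, Mir342, Mir151 and Mir490. Mir149 exceeded Mir652 by 1.11 times in replicate 1 and 1.20 times in replicate 2 (mean 1.16 ± 0.0662). The next steps were small. Mir652 exceeded Mir744 by 1.06 ± 0.0383 times and Mir744 exceeded Mir342 by 1.03 ± 0.0203 times, each above 1 by more than its SD over the 2 libraries. In CPM, however, the gaps between these neighbours were smaller than the SD of either gene. Mir342 exceeded Mir151 by 1.13 ± 0.111 times, a ratio of 1.21 in replicate 1 and 1.06 in replicate 2, which is barely above its spread.

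From Mir149 to Mir151 the span of the 5 higher genes was 1.44 ± 0.0349 times. Mir151 in turn exceeded Mir490 by 262 times in replicate 1 and 516 times in replicate 2 (389 ± 179.7). Capture of one sequence against another was not calibrated in these libraries, so the ratios count reads, not molecules. Reads stand for mature strands and not whole hairpins, so a scale per base of hairpin follows the annotated hairpin length. On it, Mir151 moved to the second place, because its hairpin of 68 bases and that of Mir149 of 66 are the shortest. On that scale Mir149 had 107 ± 6.19 and Mir151 72.1 ± 2.43 CPM per base, followed by Mir652 with 62.4 ± 7.17, Mir744 with 57.6 ± 8.69, Mir342 with 56.3 ± 7.38 and Mir490 with 0.169 ± 0.0832. The order per base was again the same in both libraries.

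Among the 371 detected genes, Mir149 ranked 25, Mir652 28, Mir744 29, Mir342 30 and Mir151 35 by mean CPM, and Mir490 ranked 296. Same-strand introns of longer genes hold 166 of the detected genes, and these took 51.4% ± 0.704 of gene reads. A gene overlapping an exon of any annotated transcript on its strand was left out, even where other transcripts have an intron there. The size, share and ranks of the intronic class depend on this rule. The 6 genes held 5.73% ± 0.640 of the reads of the intronic genes. Within that class the 5 higher genes took the ranks 12 and 14 to 16 and 18, and Mir490 rank 125.

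The remaining 160 intronic genes had a median of 99.2 CPM and ran from 2.39 to 149286 CPM, and 13 of them lay above Mir151. That median depends on the detection minimum, with 1.81 CPM for at least 1 read in either library and 275 CPM for at least 100 reads in both. The median of the 6 genes was 5667 CPM, and since their levels were known when they were chosen, nothing is read from the gap. Mir181c in Nanos3 (6879 ± 742 CPM) and Mir130b in 2610318N02Rik (5335 ± 304 CPM) stood between them in the order of intronic genes. Below Mir151, Mir423 in Nsrp1 followed with 4631 ± 499 CPM.

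**Figure D3:**
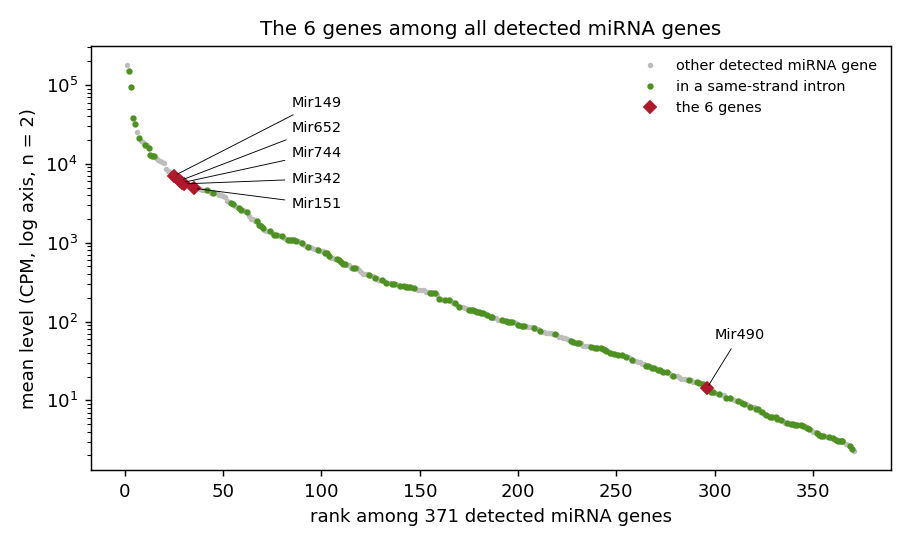
Mean level in CPM on a log axis against rank for the 371 detected miRNA genes, with the 166 intronic genes in green and the 6 genes as red diamonds. Mir149, Mir652, Mir744, Mir342 and Mir151 lie at ranks 25 to 35 and Mir490 at rank 296.

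The genes nearest to each of the 6 in level over both libraries were found by the distance in log2(CPM + 1) over the 2 libraries. For Mir744 the nearest was Mir342 (distance 0.07) and for Mir652 it was Mir744 (0.14), so members lay beside each other. The nearest to Mir151 was Mir140, with 4949 CPM in replicate 1 and 4850 CPM in replicate 2 (0.03). Mir140 overlaps an exon of an annotated transcript of Wwp2. Mir342 had Mir214 in Dnm3os nearest to it (0.07), and Mir149 had Mir181c (0.25). The nearest to Mir490 was Mir133b, a miRNA known from striated muscle, with 14.2 and 9.27 CPM (0.41).

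All 6 genes were higher in replicate 1 than in replicate 2, as were 56.1% of the detected genes. By CPM, Mir744 was 1.24-fold, Mir342 1.20-fold, Mir652 1.18-fold, Mir149 1.09-fold and Mir151 1.05-fold higher. Under TMM scaling, which shifts log2 ratios by -0.04, these 5 stayed on this side, with log2 ratios from 0.03 for Mir151 to 0.27 for Mir744. Counting error was small beside this, at 0.533% for Mir149 in replicate 1, where the CV between libraries was 5.80%. The CV was 11.5% for Mir652, 13.1% for Mir342 and 15.1% for Mir744. Among the 44 other detected genes from 2451 to 14091 CPM the median CV was 10.9%, and 20 of these 44 were higher in replicate 1. With 1 library from each pool, a difference between the pools and the spread of library preparation cannot be told apart.

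One of the 6 genes, Mir490, was at least 1.5-fold apart between the libraries on the log2(CPM + 1) scale, against 11.9% of all detected genes (44 of 371). Its log2 ratio was 0.97, or 2.07-fold in CPM, with a CV of 49.2%. Of all detected genes, 9.70% were at least 1.5-fold higher in replicate 1. Genes of similar level also spread more than abundant ones. Among the 58 other detected genes from 7.11 to 28.4 CPM, 9 were at least 1.5-fold apart, 7 of them higher in replicate 1, with a median CV of 15.7%. Counting error alone was 10.4% for the 92 reads of Mir490 in replicate 1 and 15.6% for the 41 reads in replicate 2.

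**Figure D4:**
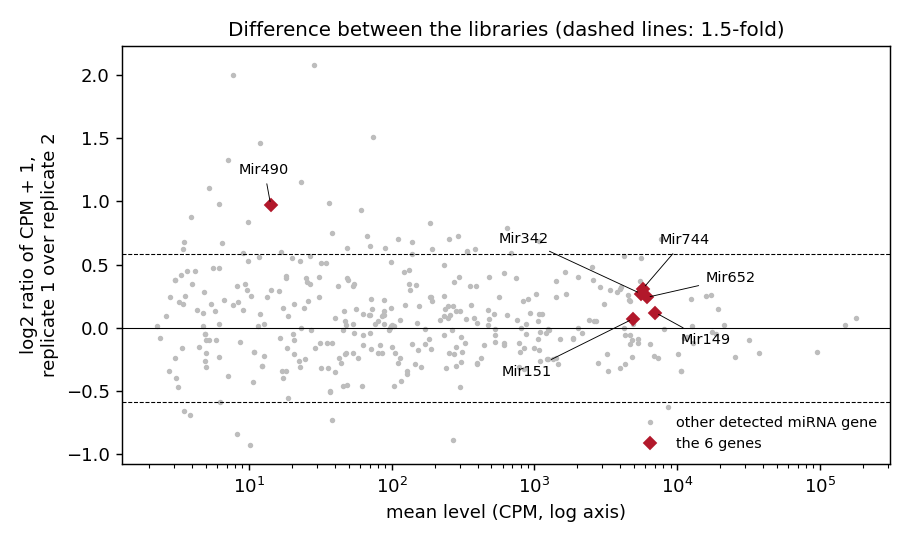
Log2 ratio of replicate 1 over replicate 2 (CPM + 1) against mean level in CPM on a log axis for the 371 detected genes, with the 6 genes as red diamonds and dashed lines at 1.5-fold. Mir490 lies at 0.97, above the upper line, and the other five between 0.07 and 0.31.

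Chrm2 is known from heart and smooth muscle as well as from neurons, so marker miRNA genes of muscle were read beside Mir490. Of 9 striated muscle genes 8 were counted and 5 detected, and Mir133a-1 and Mir133a-2, near-identical copies, were at 0 in both libraries. Their summed level was 893 CPM in replicate 1 and 528 CPM in replicate 2, a 1.69-fold difference, with 4 of the 5 detected genes higher in replicate 1. Mir206, a miRNA of skeletal muscle, led with 811 and 469.8 CPM and made up most of this sum, which therefore says little of heart muscle. Mir208b had 47.7 CPM in replicate 1 and 28.0 CPM in replicate 2. Mir208a, the only detected gene of the list that was lower in replicate 1, had 8.95 and 12.4 CPM. Both smooth muscle genes were detected and lay the other way, at 5237 CPM summed in replicate 1 and 5569 CPM in replicate 2, led by Mir143. The part of these cells in the Mir490 reads was not tested.

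For Mir342, which leukocytes also express, the marker genes of leukocytes were read in the same way. Of 4 listed genes 3 were counted and detected, and none of them was at 0. The other, Mir142, had no counted symbol, so the leukocyte sum leaves it out. The 3 counted genes summed to 349 CPM in replicate 1 and 303 CPM in replicate 2, a 1.15-fold difference beside the 1.20-fold of Mir342. Of these 3 genes, 2 were higher in replicate 1. The summed neural list, given above, was 1.21-fold higher in replicate 1, with 5 of its 7 detected genes higher there. Mir219a-2, which led it, had 6590 CPM in replicate 1 and 4499 CPM in replicate 2. Mir137, also on the list, was lower in replicate 1, with 2541 and 3077 CPM. Mir223, a myeloid miRNA and the highest of the 3 counted leukocyte genes, had 202 and 170.3 CPM, against 6087 and 5053 CPM for Mir342. The part of leukocytes in the Mir342 reads was not tested. In bulk tissue, fewer cells of a type and less miRNA per cell cannot be told apart.

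The remaining marker lists were read in the same way. The endothelial gene Mir126a, which was the only counted one of the 2 listed, was 1.11-fold higher in replicate 1. It had 20304 and 18258 CPM, above the summed neural list in each library. The erythroid list was 1.10-fold higher, with 112 and 102 CPM, and all 3 genes detected, 2 of them higher in replicate 1. The liver list was 1.13-fold higher, with 141 and 124 CPM and 3 of 4 genes detected, 2 of them higher in replicate 1. Its highest gene, Mir192, was lower there, with 59.6 CPM in replicate 1 and 65.8 CPM in replicate 2. Among these lists no counted gene was at 0 in both libraries.

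Mir151 belongs to the mir-28 family of related hairpins, whose other members in mouse include Mir28a in Lpp and Mir708 in Tenm4. Lpp encodes a protein of focal adhesions and Tenm4 a teneurin, a cell-surface adhesion protein, so the 3 hosts all act in adhesion. Mir28a (chr16:24827855-24827940) had 818 CPM in replicate 1 and 544 CPM in replicate 2, with a mean of 681 ± 194 CPM. Mir708 (chr7:96249424-96249532) had 1145 and 1365 CPM, with a mean of 1255 ± 155 CPM, and was lower in replicate 1 where Mir151 and Mir28a were higher. Mir151 exceeded Mir28a by 7.47 ± 1.88 times and Mir708 by 3.94 ± 0.620 times. Mir151 was chosen with its level in view, so nothing is read from these ratios. The remaining relative counted, Mir28b, had 6 and 3 reads and was not detected.

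A wider list of 19 miRNA genes in hosts of signalling or adhesion was compared with the 6. It was written with earlier results of these data known, and the 6 were chosen with their levels in view. Nothing is therefore read from the differences in level between the list and the 6. All 19 were counted and 17 detected. Mir764 and Mir1912, in the serotonin receptor gene Htr2c, were not detected. Mir126a, with 20304 CPM in replicate 1 and 18258 CPM in replicate 2, lay above each of the 6 genes. It overlaps an exon of an annotated Egfl7 transcript, which leaves 16 detected intronic genes. Their median was 61.9 CPM, with a range from 4.85 to 3210 CPM, and none reached the level of Mir151. The highest of the 16 were Mir139 in Pde2a, a phosphodiesterase gene, with 3210 ± 324 CPM, then Mir708 and then Mir153. Mir153, in the receptor phosphatase gene Ptprn2, had 808 CPM in replicate 1 and 806 CPM in replicate 2. Of the 16 genes, 8 were higher in replicate 1, and 2 were at least 1.5-fold apart, Mir128-2 with 172 and 107 CPM and Mir28a. Mir490 lay among the lower genes of this list, beside Mir448 of the Htr2c intron with 23.1 CPM in both libraries and Mir504 of Fgf13 with 8.33 and 7.24 CPM. The 3 detected genes of Htr2c, like Chrm2 a neurotransmitter receptor gene, ran from 4.85 CPM for Mir1264 to 69.1 CPM for Mir1298.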

How the data were processed

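The authors deposited raw counts per miRNA gene for each library, for both strands summed and for each strand. The counts used mm10 and annotation M4, per the file headers. The aligner, counter and trimming were not given in the sources used here. Of the strand columns, the one with the larger total was used as the own strand. The 4 rows that name no gene were left out of totals: unmapped reads were 27.3% and 20.0% of reads, multimapping reads 27.0% and 28.6%, reads outside features 8.04% and 4.45% in replicates 1 and 2, and ambiguous reads 0. Counts are per gene, so the 2 arms of a hairpin cannot be told apart.

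Counts were divided by the own-strand gene total to give CPM, and ratios between libraries used log2(CPM + 1). Symbols and introns came from GENCODE M21 (same assembly, later release), and 1894 of 1973 identifiers matched. With 1 group of 2 libraries no test between groups exists, so no count test (edgeR's quasi-likelihood test) was run, and a 1.5-fold minimum stands in for calls between libraries. The members, lists and rules were chosen with earlier results of these data known. Named genes are the 6 members, the nearest gene to each in level, and the mir-28 relatives. From the list of signalling and adhesion hosts the 3 highest intronic genes are named. Genes of the marker lists (Mir219a-2, Mir143, Mir223, Mir126a, Mir192, Mir133a-1, Mir133a-2, Mir142) were named as leading or absent members after their values were seen. List entries without a counted symbol, Mir28c among them, were not analysed. Mir423, Mir181c, Mir130b, Mir128-2, Mir137, Mir448, Mir504, Mir764, Mir1264, Mir1298, Mir1912, Mir206, Mir208a and Mir208b were named after their values were seen. Alternatives were TMM (edgeR 4.0.16), DESeq2 1.42.0 size factors, other filters, pseudocounts, denominators and each library left out. Scaling was also tried on simulated Poisson counts, which hold counting error only and so spread less than the abundant genes here. Python 3.11.15, scipy 1.17.1, R 4.3.3, matplotlib 3.10.9 and RNAfold 2.7.2 were used.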

Additional observations from a re-analysis of the deposited data

How the results depend on the processing

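No paired analysis was possible because the samples form 1 group. The summed share of the 6 genes was 1.77% in place of 2.94% with multimapping reads added to the denominator, which lowers every level of a library by the same factor. With 1 library left out it ran from 2.74% to 3.14%. The median of the other intronic genes was 1.81 CPM with at least 1 read in either library and 275 CPM with at least 100 reads in both, in place of 99.2 CPM, since the filter sets which genes enter. With at least 100 reads in both libraries, 0 of the 6 genes were at least 1.5-fold apart, because Mir490 falls below that minimum. The scale per base of hairpin was added after seeing the data and follows the annotated hairpin length. On it, the ratio of Mir342 to Mir151 was 0.779 in place of 1.13, and so reversed. The log2 ratio of Mir490 between libraries ran from 0.76 to 1.05 over its alternatives and that of Mir151 from 0.03 to 0.07, and no log2 ratio of the 6 changed sign under the scalings, pseudocounts, filters and strand columns tried. With 2 libraries the SD is itself uncertain, and depth limits only Mir490, with 92 and 41 reads.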
